A study of Homo sapiens with 3 samples.

Results

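The genes described here are GAS5 and the SNHG genes SNHG1, SNHG3, SNHG5, SNHG6, SNHG7, SNHG8, SNHG12, SNHG15 and SNHG16, which are noncoding host genes of small nucleolar RNAs (snoRNAs). They were chosen by symbol, and 10 of the 50868 genes in the count files are members. The RNA came from NCI-H23 cells, an established line from a human lung adenocarcinoma, either given siRNA against USP16 or labelled as control, with NC in the title and no further word on what the control cells received. USP16 removes ubiquitin from histone H2A. Knockdown libraries 1 and 2 bear those numbers in the labels, and the control is 1 library. No further genotype, dose or time is given in the labels, and nothing there says whether the knockdown libraries are different siRNAs or separate cultures. With 1 control library, p-values measure the spread between the 2 knockdown libraries, which may be technical.

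The libraries held 13956382 and 15071179 counts in knockdown libraries 1 and 2 and 14007161 in the control. USP16 had 109 and 245 counts in the knockdown libraries and 632 in the control, lower in both (log2 fold changes -2.60 and -1.58, edgeR adjusted p = 0.561). The epithelial keratins KRT8 and KRT18 had 1118 to 3364 counts in every library. Of 9 lung adenocarcinoma markers, 6 had at least 10 counts in every library. The lung lineage factor NKX2-1 had 4 to 10 counts and the surfactant gene SFTPB had 0 in all 3 libraries, so these lineage markers were at or near 0. The epithelial marker EPCAM had 161 and 232 counts in the knockdown libraries and 38 in the control, whereas CDH1 had 39 and 93 in the knockdown libraries and 142 in the control. KRT7 had 23 and 49 counts in the knockdown libraries and 81 in the control. Of 9 markers of other cells, 4 had at least 10 counts in each library. PTPRC, CD3E, PECAM1 and HBB had at most 1 count, CDH5 had 0 and 8 in knockdown libraries 1 and 2 and 0 in the control, COL1A1 had 700 to 918, and ACTA2 had 114 and 249 in the knockdown libraries and 47 in the control. The part of these differences in the results was not tested.

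A snoRNA host gene carries snoRNAs in its introns. After splicing, the introns release the snoRNAs, which guide chemical modification or processing of ribosomal RNA, whereas the spliced exons form an RNA with no known conserved protein product. Many hosts start with a 5′ terminal oligopyrimidine (TOP) tract, a C followed by further C or T letters, which they share with mRNAs of ribosomal proteins and translation factors. The spliced RNAs of GAS5 and several SNHG genes are known targets of nonsense-mediated decay (NMD), the pathway that degrades RNAs whose translation ends early, so that their level depends on decay as well as on transcription.

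The starts of the host RNAs are shown first because this tract is what sets the host genes beside ribosomal protein genes. Each line gives the first 30 bases, 5′ to 3′, of the GENCODE 29 spliced transcript (hg38) with the longest initial run of C and T that begins with C, and that run is in capitals.
GAS5: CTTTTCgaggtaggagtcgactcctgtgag
SNHG16: CTTTTCgaggtcggccgcgtggctggaaga
SNHG3: CCTTTTTggagacagattcgcagtggtcgc
SNHG12: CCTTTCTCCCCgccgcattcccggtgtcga
SNHG5: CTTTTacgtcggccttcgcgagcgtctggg
SNHG8: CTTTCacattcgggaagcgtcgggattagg
SNHG1: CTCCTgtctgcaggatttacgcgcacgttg
SNHG7: CTCTgcgtgcgccggaggctgccgtggcgg
The GAS5 transcript starts at position 173867989 of chromosome 1 on the minus strand, and 6 of its 29 annotated transcripts share that start. The SNHG16 transcript starts at 76557769 of chromosome 17 on the plus strand, and the first 11 letters printed for GAS5 and SNHG16 are alike. The printed SNHG3 transcript starts at 28506043 of chromosome 1 (plus) and that of SNHG12 at 28581873 of chromosome 1 (minus). The printed SNHG5 transcript starts at 85678733 of chromosome 6 (minus) and that of SNHG8 at 118278758 of chromosome 4 (plus). The printed SNHG1 transcript starts at 62855479 of chromosome 11 (minus) and that of SNHG7 at 136728184 of chromosome 9 (minus). The printed start belongs to 1 of 25 annotated transcripts of SNHG1, 1 of 3 of SNHG3 and 1 of 5 of SNHG8. For SNHG12 it is 2 of 17, for SNHG5 3 of 23, for SNHG16 2 of 8 and for SNHG7 3 of 4. The annotated SNHG1 gene begins upstream, at 62855914. The longest run chose these transcripts, so a printed start need not be the main start of its gene.

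A run of at least 5 letters, C followed by 4 or more letters that are each C or T, opened at least 1 transcript of 8 of the 10 host genes (80%). The 2 without it were SNHG7, with an initial run of 4, and SNHG15, with a run of 2. Among genes tested, 66 of 79 cytosolic ribosomal protein genes (83.5%) and 2607 of 17184 genes overall (15.2%) had such a transcript. Per transcript the shares were 16.3% for the host genes, 20.4% for ribosomal protein genes and 2.61% overall. A gene with many annotated starts has more chances to hold the run, and this search read the sequence of the RNA from its first base only.

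The promoters were searched for TATAA in the 50 bases before the RefSeq start (GRCh38.p14). RefSeq promoters were at hand for 8 host genes, all but SNHG6 and SNHG15. TATAA stood on the strand of the gene in 4 of these 8 (50%), against 7 of 78 ribosomal protein promoters (8.97%) and 1663 of 35116 promoters overall (4.74%). The 4 without it were GAS5, SNHG1, SNHG3 and SNHG16, and the RefSeq start searched is not the start printed above for any of them: it lies 1056 bases away for GAS5, 406 for SNHG1, 100 for SNHG3 and 5 for SNHG16. The reverse complement TTATA stood in 0 of 8, in 5.13% of ribosomal protein promoters and in 2.63% overall. The 4 windows are shown from 50 bases before the start to 10 after it, with TATAA in capitals. TATAA overlaps the pyrimidine run in none of these 4 windows, though the searched bases of SNHG8 include the first 4 of its run, which begins 4 bases before the RefSeq start.
SNHG8: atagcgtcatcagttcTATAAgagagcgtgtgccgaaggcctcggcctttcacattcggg
SNHG12: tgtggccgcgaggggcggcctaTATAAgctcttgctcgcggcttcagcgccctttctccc
SNHG7: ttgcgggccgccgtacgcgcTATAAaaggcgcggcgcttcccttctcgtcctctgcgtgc
SNHG5: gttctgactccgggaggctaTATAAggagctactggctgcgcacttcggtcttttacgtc
The SNHG8 window is chr4:118278712-118278771 on the plus strand. The others are on the minus strand, SNHG12 at chr1:28581864-28581923, SNHG7 at chr9:136728175-136728234 and SNHG5 at chr6:85678724-85678783. The first base of TATAA lay between 28 and 34 bases before the start in all 4.

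The annotated exons of the host genes and the snoRNA genes inside them are drawn to scale in the map of gene structures. SNHG8 is the shortest gene, with a span of 1115 bases and 1 snoRNA gene, SNORA24. SNHG5 is the longest, with 17799 bases and the box C/D snoRNA gene SNORD50B. SNHG1 holds 7 annotated snoRNA genes, 6 of them named SNORD, the box C/D class that guides methylation of ribose. SNHG12 has 5 annotated entries, 4 of them named SNORA, the box H/ACA class that guides pseudouridylation, and 2 of these 4 are overlapping entries of SNORA16A. The search of GENCODE 29 found 0 genes typed as snoRNA inside GAS5, although GAS5 is a snoRNA host, so its snoRNA genes were not analysed here.

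**Figure D1:**
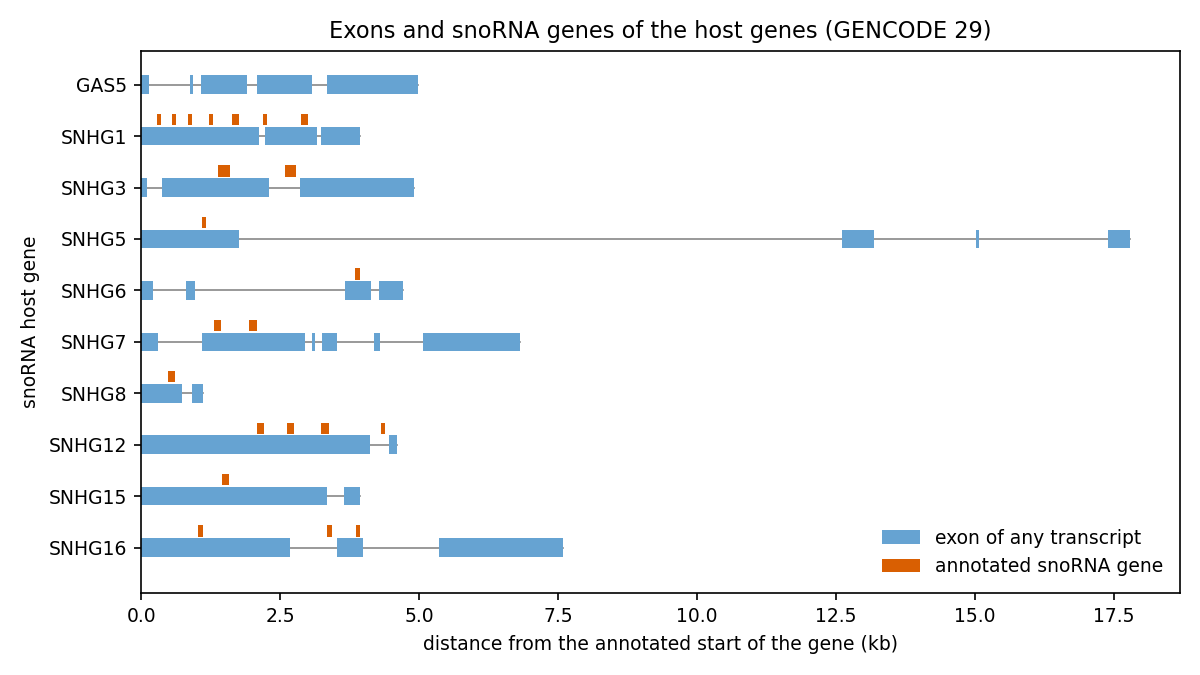
Exons of any GENCODE 29 transcript (blue) and annotated snoRNA genes (orange) of the 10 host genes, plotted by distance in kb from the annotated start of each gene. SNHG8 spans 1115 bases and SNHG5 spans 17799, and exons of some transcripts lie across the snoRNAs because introns are retained in them. No snoRNA gene is drawn for GAS5 because this annotation types none inside it, although GAS5 is a snoRNA host.

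The snoRNAs annotated inside the members were hardly measured in these libraries. For GAS5 the annotation held 0 genes typed as snoRNA, so its snoRNAs could not be followed. Of the snoRNA genes inside members other than GAS5, the count files list SNORA73A and SNORA73B, both in SNHG3. SNORA73B, which aids early cleavage of the ribosomal RNA precursor, had 26 and 24 counts in knockdown libraries 1 and 2 and 13 in the control. SNORA73A had 1 count in each library.

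Levels within a library were compared per length, as counts per kilobase of exon union scaled to the same total in each library (TPM). SNHG6 had the highest level per length in every library, 104 and 102 TPM in knockdown libraries 1 and 2 and 104 in the control. SNHG5 came next, with 84.8 and 95.5 TPM in the knockdown libraries and 100 in the control. SNHG12 had the lowest, 7.53 and 11.9 TPM in the knockdown libraries and 5.33 in the control. With the longest annotated transcript as the length, SNHG5 and not SNHG6 was the highest in each library, so the order of these 2 depends on the length used, and SNHG12 stayed the lowest. The median host gene had 44.6 and 58.2 TPM in the knockdown libraries and 32.7 in the control, while the median ribosomal protein gene had 311 and 223 TPM in the knockdown libraries and 326 in the control. These medians used exon union only, which counts retained introns as length, so the gap between the groups may depend on the length used. The median host level falls on different genes in each library, so its shift is not the change of a typical host gene. The median log2 fold change of the host genes was -0.08 in knockdown library 1 and 0.41 in library 2.

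Between libraries, the summed host RNA was close to the control in knockdown library 1 and higher in knockdown library 2. All 10 genes together had 6294 and 8547 counts in knockdown libraries 1 and 2 and 6173 in the control. This is 444 and 550 CPM in the knockdown libraries and 464 CPM in the control (CPM, counts scaled by library size and by trimmed means of M-values, TMM). The ratio to the control was 0.958 in knockdown library 1 (exact 95% interval 0.925 to 0.992) and 1.19 in knockdown library 2 (1.15 to 1.22). These intervals, like all others here, cover counting error only and say nothing of the spread between cultures. Scaled by library totals alone, the ratios were 1.02 and 1.29. Relative abundance in bulk RNA cannot tell fewer cells with a transcript from less of it per cell.

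The members did not move as a block. SNHG3, SNHG7, SNHG8 and SNHG12 were above the control in both knockdown libraries, SNHG5, SNHG6 and SNHG16 were below it in both, and GAS5, SNHG1 and SNHG15 had opposite signs. That is 4 of 10 higher in both, against 33.4% of the 17287 genes tested, and 3 of 10 lower in both, against 33.5% of all genes, so neither count stands far from the background; the 3 with opposite signs stand beside 33.2%. At least 2-fold higher in both were 0 of 10, against 3.75% of all genes. Knockdown library 2 alone had 7 members above the control and library 1 alone had 4. The share of all genes above the control in a single library is not given here, and their median log2 fold change was 0.00 in each. With library totals as the scaling, 5 members were higher and 2 lower in both. That scaling lifts the median of all genes by 0.10 and 0.11 on the log2 scale in knockdown libraries 1 and 2. Both knockdown libraries share the single control. All 10 genes passed the filter on low counts.

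No host gene passed the test over all genes. The edgeR quasi-likelihood test with Benjamini-Hochberg adjustment gave an adjusted p of 0.999 for each member and called 0 of 10, with 0 of 10 at an unadjusted p under 0.05, and DESeq2 likewise called 0 of 10 members, 0 of them at an unadjusted p under 0.05. Over all genes edgeR called 0 up (0%) and 3 down (0.0174%), DESeq2 called 0.0463% up and 0.0347% down, and 4.88% had an unadjusted edgeR p under 0.05. With 1 control library the fit has 1 residual degree of freedom, and the control is taken to vary like the knockdown libraries. The standard errors of the DESeq2 log2 fold changes were 0.49 to 0.65 for the members.

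SNHG8, the host of the H/ACA snoRNA SNORA24, stood highest above the control. It had 235 and 306 counts in knockdown libraries 1 and 2 and 116 in the control, or 16.6 and 19.7 CPM in the knockdown libraries and 8.71 in the control. Both knockdown values lay above the control, and the counting intervals did not overlap it. The ratio to the control was 1.90 (1.52 to 2.40) in knockdown library 1 and 2.26 (1.82 to 2.82) in knockdown library 2. The mean log2 fold change was 1.04 ± 0.17 (SD, n = 2 knockdown libraries; any spread of the control is not in it), above that of 93.7% of genes tested (edgeR unadjusted p = 0.0659, adjusted p = 0.999).

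SNHG3, the host of SNORA73A and SNORA73B, had 733 and 957 counts in knockdown libraries 1 and 2 and 467 in the control, or 51.7 and 61.5 CPM in the knockdown libraries and 35.1 CPM in the control. Both knockdown values were above the control, with a mean log2 fold change of 0.68 ± 0.18 (edgeR unadjusted p = 0.141). RCC1, the exchange factor of the nuclear GTPase Ran, overlaps SNHG3 on the same strand, so reads of the pair cannot be told apart with certainty. RCC1 was also above the control in both libraries, with 2479 and 1826 counts in knockdown libraries 1 and 2 and 935 in the control (log2 fold changes 1.31 and 0.74, edgeR adjusted p = 0.999). The order of the knockdown libraries differed: SNHG3 was higher in library 2 and RCC1 in library 1. The part of the overlap in the SNHG3 values was not tested.

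SNHG7 was near the control in knockdown library 1, and SNHG12 lay above it there, though not beyond counting error. Both genes were above the control in library 2 beyond counting error. SNHG12 had 147 and 247 counts in knockdown libraries 1 and 2 and 108 in the control, with ratios of 1.28 (0.991 to 1.65) and 1.96 (1.56 to 2.48). SNHG7, the host of SNORA17A and SNORA17B, had 336 and 651 counts in knockdown libraries 1 and 2 and 296 in the control, with ratios of 1.07 (0.909 to 1.25) and 1.88 (1.64 to 2.17). In both genes the interval of the first ratio includes 1 and that of the second does not. The mean log2 fold changes were 0.65 ± 0.43 for SNHG12 and 0.50 ± 0.58 for SNHG7, where the spread exceeds the change. SNHG12 overlaps TRNAU1AP and SNHG7 overlaps FAM69B, each on the other strand, and both of these genes were below the control (log2 fold changes -0.33 and -0.34 for TRNAU1AP, -0.28 and -0.44 for FAM69B).

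SNHG1, which carries the run of SNORD25 to SNORD28 as well as SNORD30 and SNORD22, differed most between the knockdown libraries. It had 838 and 1682 counts in knockdown libraries 1 and 2 and 855 in the control. Library 1 lay beside the control and library 2 far above both, at 59.1 and 108 CPM in knockdown libraries 1 and 2 and 64.2 CPM in the control. Knockdown library 2 over library 1 was 1.83 (1.68 to 1.99), a description of 2 single libraries that has no test. The log2 fold changes were -0.12 and 0.75, with a mean of 0.32 ± 0.61. SLC3A2, the heavy chain of amino acid transporters, starts 188 bases away on the other strand and had the opposite order, with 2145 and 1814 counts in knockdown libraries 1 and 2 and 1218 in the control.

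SNHG5, SNHG6 and SNHG16 were below the control in both libraries. SNHG5, the most abundant host gene of the control by counts, had 1089 and 1302 counts in knockdown libraries 1 and 2 and 1333 in the control, with ratios of 0.767 (0.708 to 0.832) and 0.836 (0.774 to 0.903). Its mean log2 fold change was -0.32 ± 0.09 (edgeR unadjusted p = 0.451). SNHG6, the host of SNORD87, had 591 and 618 counts in knockdown libraries 1 and 2 and 616 in the control (log2 fold changes -0.15 and -0.22). SNHG16, the host of SNORD1A, SNORD1B and SNORD1C, had 524 and 500 counts in knockdown libraries 1 and 2 and 518 in the control (log2 fold changes -0.07 and -0.27). For SNHG6 and SNHG16 the first ratio cannot be told from 1 by counting error, with intervals of 0.804 to 1.01 and 0.840 to 1.08. MCMDC2, which overlaps SNHG6 on the other strand, had 95 and 65 counts in knockdown libraries 1 and 2 and 25 in the control.

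GAS5 and SNHG15 lay closest to the control. GAS5, known for rising when growth stops, had 1127 and 1466 counts in knockdown libraries 1 and 2 and 1191 in the control, or 79.5 and 94.3 CPM in the knockdown libraries and 89.5 CPM in the control. The control value fell between the knockdown values, with log2 fold changes of -0.17 and 0.08 and ratios of 0.889 (0.819 to 0.965) and 1.05 (0.975 to 1.14). SNHG15, the host of SNORA9, had 674 and 818 counts in knockdown libraries 1 and 2 and 673 in the control, with log2 fold changes of -0.09 and 0.06. The mean was -0.05 ± 0.17 for GAS5 and -0.02 ± 0.10 for SNHG15, smaller than the spread in each. With library totals as the scaling both means were above 0 (0.06 and 0.09). ZBTB37, which overlaps GAS5 on the other strand, was at 0.19 and 0.75.

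**Figure D2:**
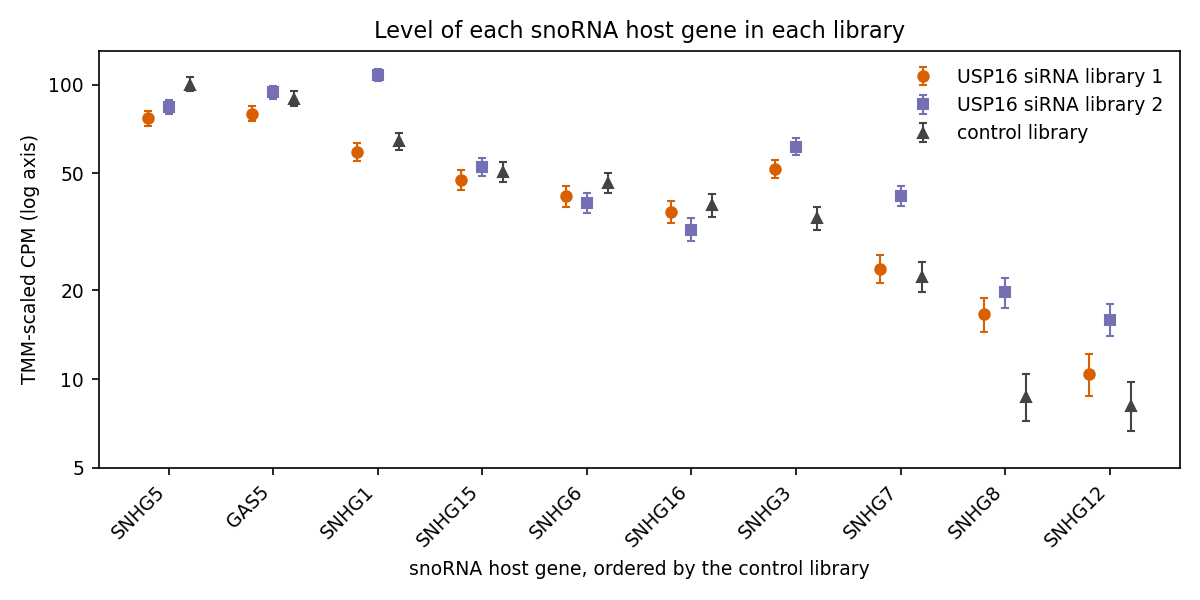
TMM-scaled CPM on a log axis for each host gene in knockdown library 1 (circles), knockdown library 2 (squares) and the control (triangles), with exact Poisson 95% intervals of the counts. SNHG8 and SNHG3 lie above the control in both knockdown libraries, SNHG7 and SNHG12 mainly in library 2, and SNHG1 in library 2 only. SNHG5 lies below the control in both.

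The composition of the summed host RNA shifted accordingly. SNHG5 made up 17.3% and 15.2% of the counts of the 10 genes in knockdown libraries 1 and 2 and 21.6% in the control. SNHG1 made up 13.3% and 19.7% in the knockdown libraries and 13.9% in the control. SNHG8, a small part of the sum, made up 3.73% and 3.58% in the knockdown libraries and 1.88% in the control. GAS5 held 17.2% to 19.3% in all 3 libraries.

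Knockdown library 2 was above library 1 for 8 of the 10 host genes, all but SNHG6 and SNHG16, against 49.9% of all genes tested. The order is not particular to these hosts. Library 2 was also above library 1 for 13 of 16 other noncoding snoRNA hosts tested and 13 of 16 other long noncoding RNAs tested. The median absolute difference between the knockdown libraries was 0.24 on the log2 scale for the host genes, against 0.36 for the 11236 genes averaging 100 counts or more. The largest difference among host genes, 0.87 for SNHG1, lay below the 90th percentile of those genes, 1.02.

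Ribosomal protein genes, which share the TOP start, had the other order of libraries. Their 79 genes had median log2 fold changes of 0.04 in knockdown library 1 and -0.28 in library 2, and the host genes had -0.08 and 0.41. The median of all genes tested was 0.00 in each. With library totals as the scaling the host genes were at 0.01 and 0.53 and the ribosomal protein genes at 0.14 and -0.16, so the sign in library 1 depends on the scaling for the host genes. Of the ribosomal protein genes, 11 were higher and 28 lower in both libraries (20 and 16 with library totals), and knockdown library 2 was above library 1 for 14 of 79, against 8 of 10 host genes. Under TMM scaling 33.4% of all genes tested were higher and 33.5% lower in both libraries. These are the shares to set beside this list and those below. The difference between the groups of genes was not tested.

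**Figure D3:**
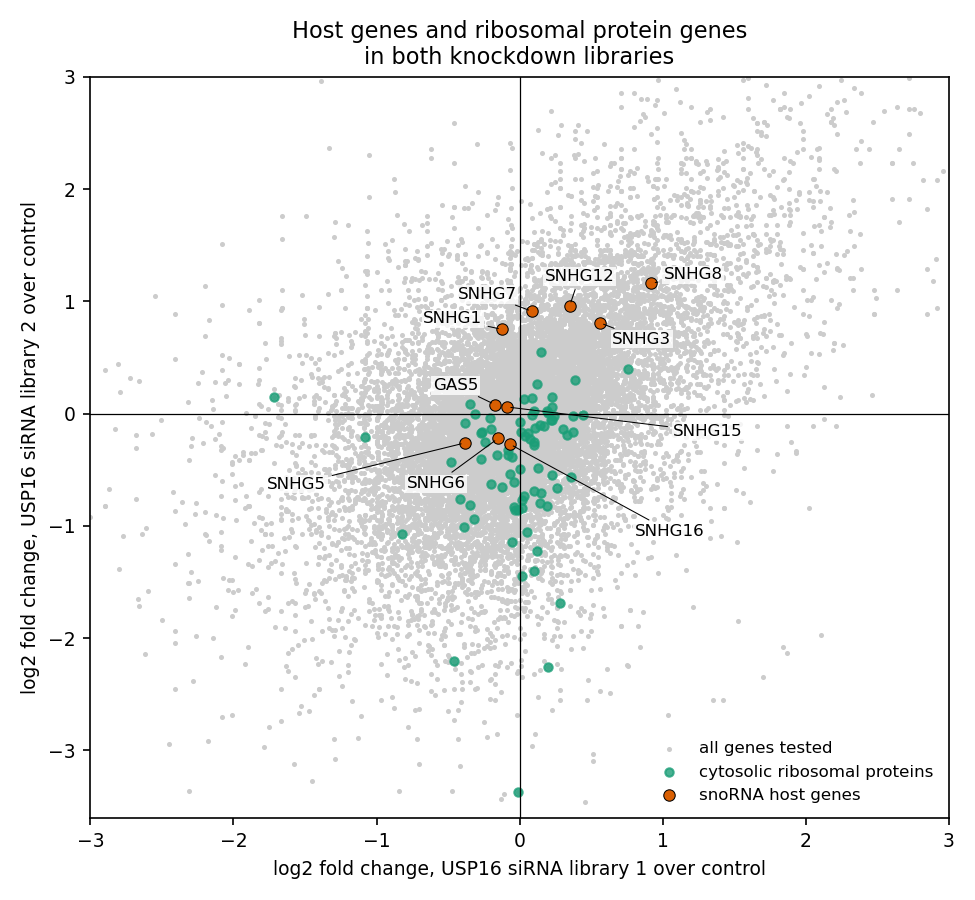
Log2 fold change over the control in knockdown library 1 (horizontal) and library 2 (vertical) for the 10 host genes (orange), 79 ribosomal protein genes (green) and all genes tested (grey); genes beyond the drawn range are not shown. Both axes share the single control, and 5 host genes lie at 0.75 or more on the vertical axis, above all ribosomal protein genes shown.

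Some ribosomal protein genes host snoRNAs too. The 28 with an annotated snoRNA on their strand had medians of 0.09 and -0.23 in knockdown libraries 1 and 2, and the 51 with none annotated had 0.03 and -0.37. RPS12, a host among them, had 7075 and 1408 counts in knockdown libraries 1 and 2 and 5785 in the control. RPL3, another host, had 12767 and 4951 in the knockdown libraries and 11222 in the control. RPL39 ran the other way, with 225 and 453 counts in knockdown libraries 1 and 2 and 449 in the control. RPS3 was lower in both libraries, with 5595 and 5166 counts in knockdown libraries 1 and 2 and 9272 in the control (edgeR unadjusted p = 0.0237, adjusted p = 0.999). Among those with no annotated snoRNA, RPS24 had the largest mean change, with 17886 and 1912 counts in knockdown libraries 1 and 2 and 16897 in the control, all of it in library 2. RPLP1 was low in library 1 instead, with 2265 and 9108 counts in knockdown libraries 1 and 2 and 7007 in the control. Ribosomal protein genes have many near-identical pseudogenes, so single members are uncertain.

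Other TOP mRNAs, for translation factors and RNA-binding proteins, had medians of -0.07 and -0.12 over 19 genes, with 5 higher and 11 lower in both libraries. The elongation factor EEF1G had 6777 and 2371 counts in knockdown libraries 1 and 2 and 9025 in the control, while EIF3F, a subunit of an initiation factor, had 986 and 1104 in the knockdown libraries and 537 in the control. Of 18 regulators of TOP mRNAs, from the mTOR pathway and among RNA-binding proteins, 2 were higher and 8 lower in both (medians -0.07 and -0.25). LARP1, which binds the TOP start, was at -0.30 and -0.66, and RHEB, the GTPase that activates mTOR, at -0.34 and -0.89 (edgeR adjusted p = 0.999 for each).

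Further noncoding snoRNA hosts numbered 16 tested out of 22 listed. In both libraries 10 of them were above the control and 1 below it (medians 0.17 and 0.42), and edgeR called 0, with 0 at an unadjusted p under 0.05. EPB41L4A-AS1, a host whose spliced RNA is noncoding, had 172 and 393 counts in knockdown libraries 1 and 2 and 142 in the control. SNHG17 was at 0.20 and 0.39, SNHG4 at 0.26 and 0.53, and SNHG14, the long transcript of the imprinted Prader-Willi region, at 0.64 and 0.21. A low gene could pass the filter through the knockdown libraries alone, so these counts are not evidence for the list.

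Of 18 long noncoding RNAs that were not listed as snoRNA hosts, 16 were tested. In both libraries 9 of the 16 were above the control and 2 below it (medians 0.10 and 0.63). Over all genes tested, 33.4% were above it in both and 33.5% below it. A low gene could here too pass the filter through the knockdown libraries alone, so these counts are not evidence for the list. MALAT1, a nuclear RNA of speckles, had 1788 and 3965 counts in knockdown libraries 1 and 2 and 1250 in the control. GABPB1-AS1, an antisense RNA, was at 1.56 and 2.41 (edgeR unadjusted p = 0.00138, adjusted p = 0.561). The difference from the host genes was not tested.

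The mRNAs of the proteins that form snoRNPs with snoRNAs were well counted, and the proteins themselves were not measured. Of the box C/D core, FBL, the methyltransferase, had 3816 and 4843 counts in knockdown libraries 1 and 2 and 3002 in the control (log2 fold changes 0.26 and 0.47). NOP56 was at -0.12 and -0.01, NOP58 at -0.23 and 0.76, and SNU13 at -0.25 and 0.34. Knockdown library 2 was above library 1 in each of these 4. Of the H/ACA core, DKC1, the pseudouridine synthase, had 2825 and 5077 counts in knockdown libraries 1 and 2 and 2292 in the control (0.21 and 0.92). GAR1 was at 0.29 and 0.38, NOP10 at 0.30 and 0.29 and NHP2 at 0.02 and 0.02, so all 4 were above 0 in both libraries. The ratio of NHP2 to the control, 1.01 (0.969 to 1.06) in each library, cannot be told from 1 by counting error. The edgeR adjusted p was 0.999 for each of these 8 genes.

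Of 19 factors of snoRNP assembly and processing, 5 were higher and 4 lower in both libraries (medians 0.00 and 0.02). NOLC1, a chaperone that binds both classes of snoRNP, stood apart with 7576 and 7079 counts in knockdown libraries 1 and 2 and 2485 in the control (log2 fold changes 1.52 and 1.29, edgeR unadjusted p = 0.00444, adjusted p = 0.818). RUVBL1 was at 0.32 and 0.33 and RUVBL2 at 0.52 and 0.38, both ATPases of the assembly complex. SHQ1, a chaperone of dyskerin, was at -0.96 and -0.10.

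The NMD factors, which degrade several spliced host RNAs, had medians of 0.06 and 0.09, with 10 of 20 higher and 5 lower in both. UPF3B had 720 and 1137 counts in knockdown libraries 1 and 2 and 441 in the control, UPF2 was at 0.92 and 0.26, and SMG8 at -0.14 and -0.82. Coding transcripts known to be sensitive to NMD had medians of -0.17 and -0.06 over 13 genes, with 3 higher and 5 lower in both. SRSF2, a splicing factor with an NMD-sensitive isoform, had 1128 and 1012 counts in knockdown libraries 1 and 2 and 2381 in the control (edgeR unadjusted p = 0.00649, adjusted p = 0.822), and GADD45A was at -0.61 and -0.63. Counts per gene do not separate the isoforms that NMD acts on.

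**Figure D4:**
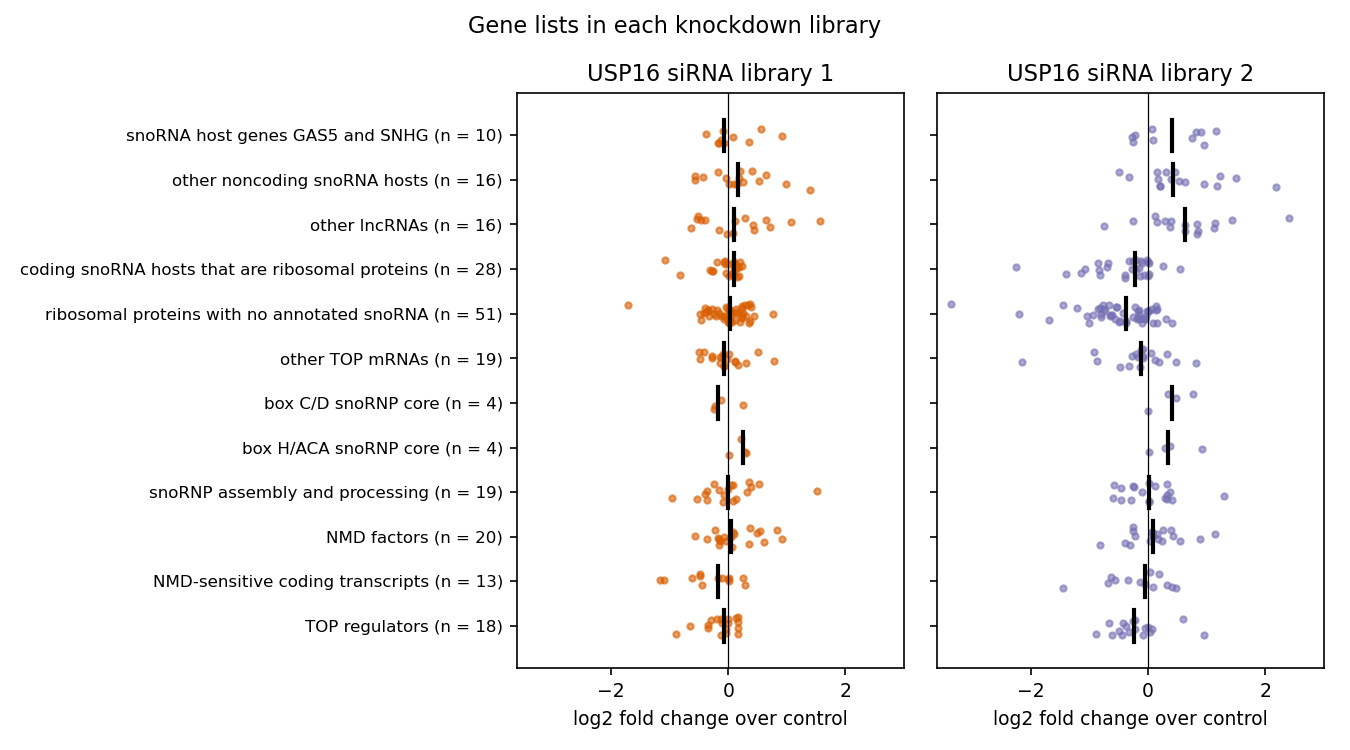
Log2 fold change over the control of each gene (points) and the median (black bar) for the host genes and the lists set beside them, in knockdown library 1 (left) and library 2 (right); n is the number of genes tested. In library 2 the medians of the host genes and of both other noncoding lists lie at 0.41 to 0.63, and the ribosomal protein genes lie at or below -0.23. The coding genes of the box C/D and H/ACA cores lie near the noncoding lists, at 0.40 and 0.33, and the remaining lists at -0.25 to 0.09.

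Coding snoRNA hosts other than ribosomal protein genes, by annotation, had medians near 0 (0.00 and 0.03 over 211 tested), with 72 higher and 67 lower in both. C6orf48 is on this list and among the noncoding hosts. MBD2, a reader of DNA methylation, was at -0.52 and -2.20, and ATP2B4, a calcium pump, at -0.61 and -2.10. The readthrough genes PPAN-P2RY11 (351 and 200 counts in the knockdown libraries, 51 in the control) and ATP6V1G2-DDX39B (0 and 0 in the knockdown libraries, 637 in the control, called by edgeR) share exons with other genes and are uncertain.

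The genes averaging 100 counts or more whose pair of log2 fold changes lay nearest to the median pair of the host genes, -0.08 and 0.41, were SAP30BP, XIAP, INTS4, SELK and RAE1, at Euclidean distances of 0.0142 to 0.0227 over the 2 changes. With 3 libraries such a likeness describes these values only.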

How the data were processed

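The authors deposited whole-number read counts per gene for 1 control and 2 knockdown libraries. HISAT2 2.0.4, StringTie 1.3.0 and the build hg38 appear in the submitters' processing notes. How reads were counted, with or without strand, and on which annotation was not given in the sources used here. Knockdown library 2 has the number 6 in its column name; its label was followed. Of 50868 gene identifiers, 50111 (98.5%) matched GENCODE release 29, which gave positions, lengths and transcript starts.

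Genes were filtered with filterByExpr (17287 left), scaled by TMM (factors 1.02 and 1.03 in knockdown libraries 1 and 2 and 0.952 in the control) and tested with edgeR 4.0.16 in R 4.3.3 (quasi-likelihood, Benjamini-Hochberg, threshold 0.05), after a check on simulated data. The check bounded only the median fold changes, with a spread set in advance and not taken from these data, so it does not measure error rates here. Fold changes per library are differences of log2 CPM with a prior count of 2. No libraries were identical (chi-square 62.5 per degree of freedom between knockdown libraries), and totals of 13956382 to 15071179 counts limit precision as the intervals show. Intervals are 95% exact Poisson or binomial. Alternatives were other filters, scalings, a prior count of 10, DESeq2 1.42.0, another length, and leaving out each knockdown library; the restriction to members that overlap no other gene was added after seeing the data.

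Members and the 10 gene lists were chosen with earlier results of these data known. Named genes were all members, USP16, overlapping or neighbouring genes with a start within 1000 bases, up to 4 genes per list with the largest mean change at a mean of at least 100 counts, both snoRNP cores and the 5 genes of nearest pattern. Not every gene the rule allows is named.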

Additional observations from a re-analysis of the deposited data

How the results depend on the processing

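No paired analysis was possible because there is only 1 control library, so the groups share fewer than 2 replicate numbers. The mean log2 fold change of a host gene kept its direction in 57 of 60 alternatives that kept all libraries. It reversed for GAS5 with library totals (0.06) and for SNHG15 with library totals (0.09) and with a minimum mean of 100 counts (0.02). The lowest adjusted p of any host gene was 0.898 with edgeR and 0.999 with DESeq2. Genes called over all genes were 40 higher and 30 lower without a filter, 4 and 5 with library totals, 8 and 6 with DESeq2, and 1 lower with a minimum mean of 100 counts. Leaving out each knockdown library gave 4 to 7 host genes higher (7 without library 1, 4 without library 2), 3 to 6 lower (3 and 6) and 0 to 1 at least 2-fold higher, a median of -0.28 to 0.04 for ribosomal protein genes and no test, since no residual degree of freedom was left. With library totals 1 host gene was at least 2-fold higher in both. Shares over all genes under these settings are not given, so these counts have no background to set beside them. Of the 4 members that overlap no other annotated gene, 1 was higher and 1 lower in both. The summed ratio to the control was 1.02 and 1.29 with library totals, and 1.01 and 1.27 without mitochondrial genes in the total. The cause of these shifts was not tested.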
